A study of Mus musculus with 4 samples.

Results

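Trimethylation of histone H3 at lysine 27 (H3K27me3) was examined at 10 autosomal genes of mesenchymal and contractile fibroblasts, chosen by symbol: Fn1, Sparc, Postn, Vim, Tagln, Acta2, Pdgfra, Pdgfrb, Thy1 and Prrx1. All 10 were found once in the table and had a value in both genotypes, out of 19836 autosomal genes with both values and 22691 genes listed. The cells were embryonic fibroblasts of female C57BL6/J fetuses at embryonic day 13.5, either Smchd1 +/+ (WT) or Smchd1 MD1/MD1 (MD1), which the series describes as deficient for SmcHD1, a chromatin protein of the inactive X chromosome. Each genotype had 1 ChIP library, made with the mouse monoclonal antibody CMA323, and 1 input library without antibody, 4 libraries in all. Whether a library came from 1 fetus or from several is not given in the sources used here. With 1 library of each kind there was no replicate error and no test between genotypes, and the depth of the libraries is unknown. A value is the log2 of an enrichment, so that 0 is a ratio of 1 and lower values mean less of the mark, and a difference is the MD1 value minus the WT value.

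H3K27me3 is laid down by Polycomb repressive complex 2 over genes that are kept silent, and is in general scarce over genes that are being transcribed. Fibroblasts are mesenchymal cells that secrete extracellular matrix, hold it through integrins, answer platelet-derived growth factor (PDGF), and, as myofibroblasts, build actin bundles of the smooth muscle type. The 10 genes cover these functions. Fn1 encodes fibronectin, Sparc and Postn the matricellular proteins osteonectin and periostin, Vim the intermediate filament vimentin, Tagln the actin-binding protein transgelin and Acta2 smooth muscle actin. Pdgfra and Pdgfrb encode the 2 PDGF receptors, Thy1 a surface glycoprotein used to sort fibroblasts, and Prrx1 a homeodomain transcription factor of limb and craniofacial mesenchyme. RNA was not measured, so nothing below is a level of expression.

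Promoter sequences, 250 bases before to 50 bases after the start site, were taken from RefSeq (build GRCm38.p6, whereas the deposited positions are in mm9) for the 6 of the 10 genes that were matched. CG dinucleotides, which are dense in the CpG islands that Polycomb complexes occupy, are in capitals. Vim and Sparc are shown as genes with less mark in MD1 and Postn as the gene whose value was furthest above genes of like level.
Vim, chr2:13574061-13574360, + strand: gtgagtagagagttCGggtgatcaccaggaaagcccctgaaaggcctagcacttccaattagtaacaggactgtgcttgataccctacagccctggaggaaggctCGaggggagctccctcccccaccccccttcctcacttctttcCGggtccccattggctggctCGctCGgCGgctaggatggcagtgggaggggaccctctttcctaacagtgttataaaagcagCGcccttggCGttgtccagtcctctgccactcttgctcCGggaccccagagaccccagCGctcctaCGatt
Sparc, chr11:55420031-55420330, - strand: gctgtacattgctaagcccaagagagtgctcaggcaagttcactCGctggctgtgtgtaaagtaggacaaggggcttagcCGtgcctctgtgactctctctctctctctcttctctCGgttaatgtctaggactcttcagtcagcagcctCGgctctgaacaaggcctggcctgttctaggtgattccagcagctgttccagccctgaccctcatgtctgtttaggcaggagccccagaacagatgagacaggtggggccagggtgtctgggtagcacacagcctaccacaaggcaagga
Postn, chr3:54360857-54361156, + strand: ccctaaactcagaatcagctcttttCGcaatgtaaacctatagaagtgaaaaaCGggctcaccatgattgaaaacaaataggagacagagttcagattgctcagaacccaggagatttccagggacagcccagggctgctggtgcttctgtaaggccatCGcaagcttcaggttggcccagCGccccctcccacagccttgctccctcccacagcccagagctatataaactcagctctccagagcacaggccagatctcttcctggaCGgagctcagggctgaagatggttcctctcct
For all 3, the distance from the start site to the end of the RefSeq gene equalled the length of the deposited interval (8516 bp for Vim, 25922 bp for Sparc and 29935 bp for Postn). The Vim window held 11 CG dinucleotides, that of Sparc 4 and that of Postn 5. The windows of Acta2, Prrx1 and Pdgfra held 6, 6 and 5. Over 31396 autosomal promoter windows of 300 bases the median was 7, with quartiles of 3 and 21, so all 6 genes lay below the upper quartile. The letters TATAAA, which share no base with a CG, began 32 bases before the start of Vim and 26 before that of Postn and were in no other window of the 6 genes at these or their second start sites, on either strand; 8.32% of all windows held them on the gene's strand and 13.6% on either strand. The CArG box, the binding motif of serum response factor at contractile genes, was searched as CC, 6 bases of A or T, and GG. It had no exact match in the 6 genes' windows, against 1.57% of all windows. Stretches that differ from it by a base were not counted, such as ccctatatgg and ccttgtttgg in the Acta2 window.

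All 10 genes lay below the autosomal median in both genotypes. In WT they ran from -3.61 to -1.80, with a median of -2.90, against an autosomal median of -0.78. In MD1 they ran from -5.60 to -1.21, with a median of -4.55, against -0.90. The medians of the 10 stood at percentiles 6.28 and 4.66 of autosomal genes. Of the 10, 8 lay below the first autosomal quartile in WT and 6 in MD1. The genes were much further apart in MD1, where the standard deviation over the 10 was 1.62, than in WT, where it was 0.59. Over all autosomal genes it was 2.08 and 1.57. Over the 7950 autosomal genes whose mean of both log2 values lay in the range of the 10, it was 0.97 in MD1 and 0.58 in WT.

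**Figure D1:**
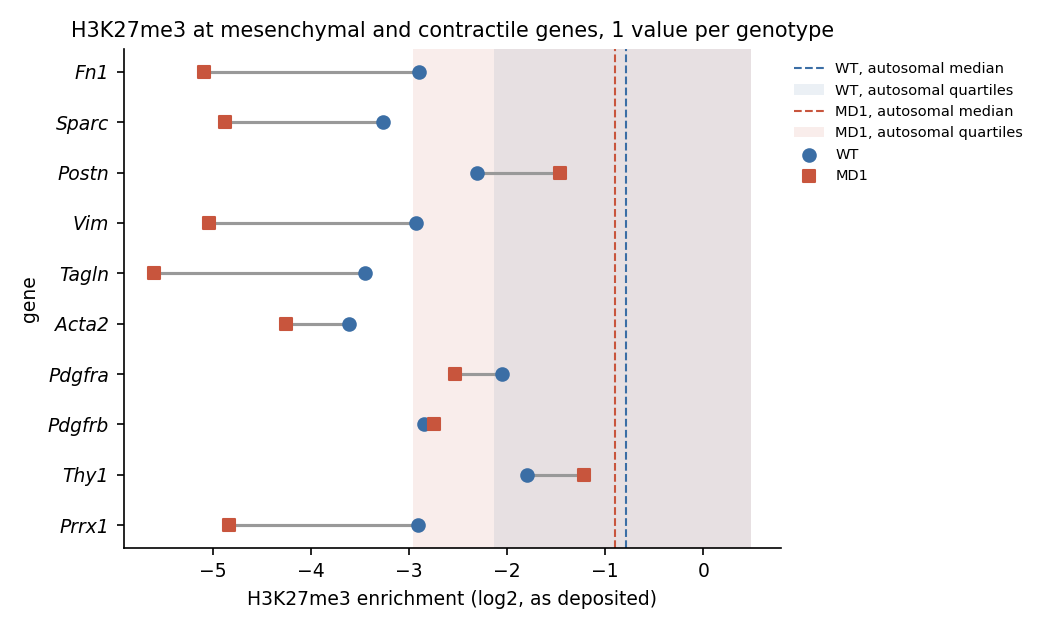
Deposited log2 H3K27me3 enrichment of the 10 genes (1 line per gene, ordered by role) in WT (circles) and MD1 (squares), 1 value per genotype, with the autosomal median (dashed) and quartiles (shaded) of each genotype. All points lie left of both medians, and Postn, Thy1 and Pdgfrb are the genes whose MD1 value is to the right of their WT value.

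Of the 10 genes, 5 had at least 2-fold less enrichment in MD1 and 0 had at least 2-fold more. Fn1, Tagln, Vim, Prrx1 and Sparc were the lower ones, with differences from -2.19 to -1.61. Acta2, Pdgfra, Pdgfrb, Thy1 and Postn lay between -0.64 and 0.85. Among all autosomal genes 20.4% passed that limit downward and 1.61% upward. Among the 7950 autosomal genes whose mean of both log2 values was in the range of the 10, -4.52 to -1.50, the shares were 46.3% and 1.01%. At the 2-fold limit the 5 of 10 is therefore near the share over that whole range. At a 3-fold limit the count of genes was again 5 of 10, against 17.1% of those 7950 genes and 7.61% of all autosomal genes. Those 7950 genes are not all of like level to the 5 lower genes, whose mean levels ran from -4.52 to -3.87. The share at least 2-fold lower was 81.1% of autosomal genes with a mean level between -5 and -4. It was 76.0% between -4 and -3 and 33.4% between -3 and -2. The 3-fold share at the level of the 5 genes was not computed. The median difference was -1.13 over the 10, -0.94 over those 7950 genes and -0.27 over all autosomal genes.

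A difference depended on level, most steeply among genes of low level, and the slope of MD1 on WT was 1.25 over autosomal genes. Autosomal genes with a mean level between -5 and -4 had a median difference of -2.10, and those between -4 and -3 one of -1.35. It was -0.32 between -2 and -1 and -0.13 between -1 and 0. Each gene was therefore also compared with 500 autosomal genes of its own length quartile, those closest to it in mean level, and its difference minus their median is called the level-matched difference. By that measure 0 of 10 genes were at least 2-fold lower, against 3.41% of autosomal genes, and 2 of 10, Postn and Pdgfrb, at least 2-fold higher, against 3.16%. The median over the 10 was 0.091. The 5 genes that were lower in MD1 had level-matched differences from -0.80 to -0.051, and the other 5 from 0.23 to 1.35. The spread of the 500 genes stands in for a replicate error that these data do not have, and it serves as a description only. The mean levels of the 500 ran from -5.32 to -3.67 for Tagln and from -2.59 to -1.99 for Pdgfra. Like level is thus a loose match at the lowest genes.

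**Figure D2:**
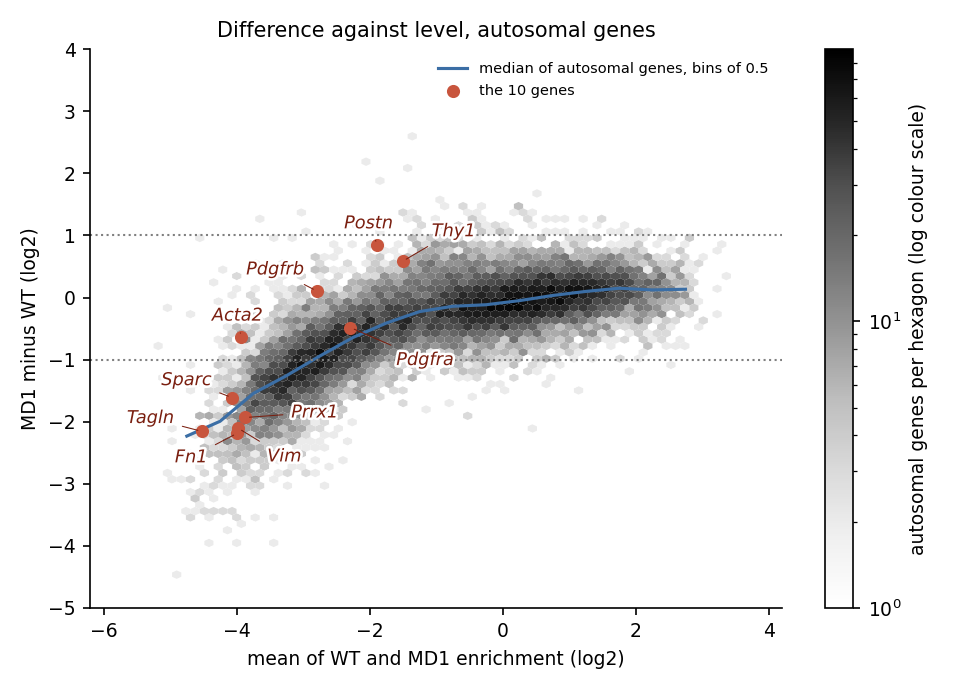
MD1 minus WT (log2) against the mean of both values (log2) for autosomal genes (hexagons, darker for more genes), with their median in bins of 0.5 (line), the 2-fold limits (dotted) and the 10 genes (points). Fn1, Vim, Prrx1, Tagln and Sparc lie in the low-level arm where most genes are below 0, whereas Postn, Pdgfrb and Acta2 lie above the line.

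Among the matrix genes, Fn1 (chromosome 1, 71632047 to 71699808, mm9, minus strand) had a WT value of -2.90 and an MD1 value of -5.08, which is 4.55-fold less or -2.19 on the log2 scale. This was the lowest difference of the 10 genes. Fn1 had a mean level of -3.99, and its 500 genes of like level and length ran from -4.66 to -3.09. Of those 500, 14 had a difference as low. The level-matched difference of Fn1 was -0.80, against a standard deviation of 0.36 among those genes. It became -0.42 when gene length was left out of the match and -1.04, past the 2-fold limit, with the 1000 nearest genes. Sparc (chromosome 11, 55207661 to 55233582, minus strand) stood at -3.26 and -4.88, a difference of -1.61. That is close to the median of its like genes, -1.56, and 236 of the 500 had a difference as low. Postn (chromosome 3, 54165029 to 54194963, plus strand) went from -2.31 to -1.46 in MD1, which is 1.80-fold more or 0.85 on the log2 scale. The gene had more of the mark in MD1, while its 500 like genes had a median difference of -0.50 with a standard deviation of 0.37. The level-matched difference of Postn was 1.35, and 0 of the 500 had a difference as high. It was 1.93 with genes matched on the WT value alone and 1.12 with genes matched on the MD1 value alone.

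Among the cytoskeletal genes, Vim (chromosome 2, 13495938 to 13504453, plus strand) went from -2.93 in WT to -5.03 in MD1, which is 4.30-fold less or -2.10 on the log2 scale. Tagln (chromosome 9, 45737711 to 45744141, minus strand) stood at -3.45 and -5.60, the lowest MD1 value of the 10 genes, with a difference of -2.16. Both are short genes, whose like genes scattered widely, and both lay within their spread. Vim had a level-matched difference of -0.49 against a standard deviation of 0.74, and Tagln one of -0.55 against 1.23. With genes matched on the WT value alone they were -0.97 and -1.19, the latter past the 2-fold limit. With genes matched on the MD1 value alone they were -0.32 for Vim and 0.039 for Tagln, so the direction at Tagln turned. The Tagln interval shares 95 bp with Pcsk7, a proprotein convertase gene on the other strand, which stood at -2.69 and -3.87. Acta2 (chromosome 19, 34314826 to 34329863, minus strand) had the lowest WT value of the 10, -3.61, and stood at -4.25 in MD1. Its difference of -0.64 was smaller than that of most genes of its level, 35 of the 500 being as high, and its level-matched difference of 0.97 was just within the 2-fold limit. It was 1.12 with the 200 nearest genes, 1.10 without the match on length and 0.49 with genes matched on the WT value alone. Written as ratios of whole numbers in lowest terms, which is the form that nearly all deposited values take, the MD1 enrichments of Vim, Tagln and Acta2 were 1 to 32, 2 to 95 and 3 to 56 before a constant factor. These 3 values may thus rest on few ChIP reads. Small numbers were also found in MD1 at Sparc, 7 to 201, Pdgfrb, 13 to 85, and Thy1, 15 to 34. Those of Fn1 and Prrx1 were 33 to 1094 and 46 to 1285.

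**Figure D3:**
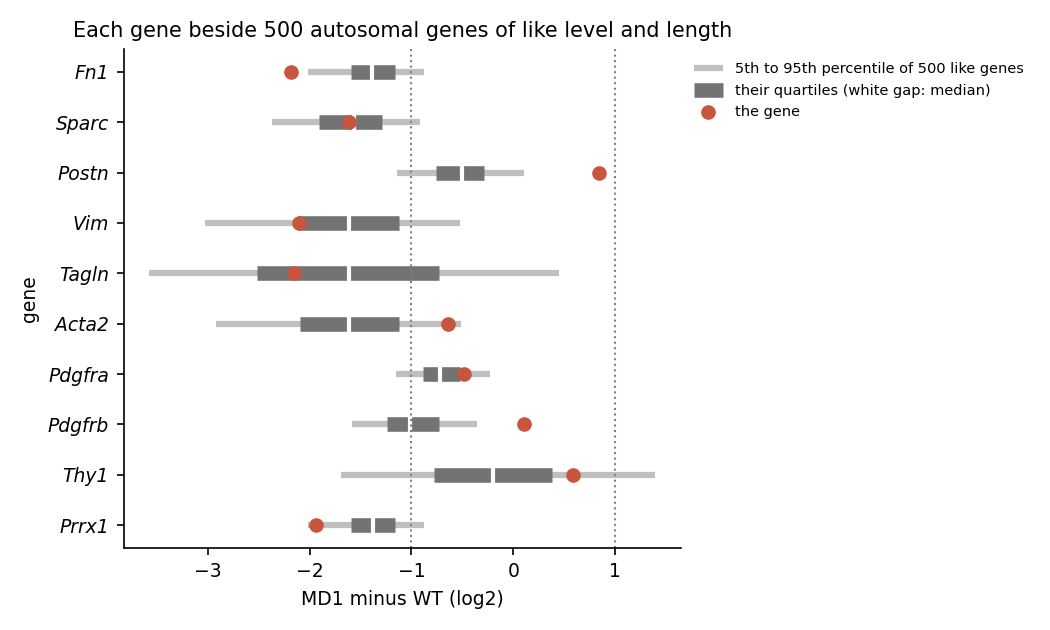
MD1 minus WT (log2) of each gene (point) beside the 500 autosomal genes nearest in mean level and of the same length quartile (thin bar, 5th to 95th percentile; thick bar, quartiles; white gap, median), with the 2-fold limits dotted. Postn and Pdgfrb lie to the right of their bars and Fn1 to the left of its bar, and the short genes Vim, Tagln and Thy1 lie within wide bars.

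Neither PDGF receptor gene was 2-fold different. Pdgfra (chromosome 5, 75548316 to 75594229, plus strand), whose product marks the early mesenchyme, stood at -2.05 in WT and -2.53 in MD1. The difference of -0.48 was above the upper quartile of its like genes, -0.53. Their median was -0.72, and 97 of the 500 were as high. Pdgfrb (chromosome 18, 61204804 to 61244721, plus strand), whose product also marks pericytes, had -2.84 in WT and -2.74 in MD1, and so differed by 0.10. Its like genes had a median of -1.01 with a standard deviation of 0.38, so its level-matched difference was 1.11, and 1 of the 500 was as high. With genes matched on the MD1 value alone it was 0.82, within the 2-fold limit. In WT Pdgfrb had less mark than Pdgfra by 0.80 and in MD1 by 0.21.

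Thy1 (chromosome 9, 43851467 to 43856662, plus strand) carried the most mark of the 10 genes in both genotypes, at -1.80 in WT and -1.21 in MD1. Its difference of 0.58 was exceeded or equalled by 92 of its 500 like genes, short genes with a standard deviation of 0.94. The level-matched difference was 0.78, and 1.24 with genes matched on the WT value alone. Prrx1 (chromosome 1, 165175250 to 165243781, minus strand), the transcription factor gene of the set, stood at -2.90 and -4.84, a difference of -1.93. Of its 500 like genes, whose mean levels ran from -4.49 to -3.09, 30 were as low. The level-matched difference of Prrx1 was -0.55. It was -0.24 without the match on length and -0.78 with the 1000 nearest genes.

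In WT the order from the least mark was Acta2, Tagln, Sparc, Vim, Prrx1, Fn1, Pdgfrb, Postn, Pdgfra and Thy1. Vim, Prrx1, Fn1 and Pdgfrb lay within 0.084 of each other there, and without replicates their order among themselves has no support. In MD1 the order was Tagln, Fn1, Vim, Sparc, Prrx1, Acta2, Pdgfrb, Pdgfra, Postn and Thy1, with a gap of 1.51 between Acta2 and Pdgfrb. Pdgfrb thus stood with Vim, Prrx1 and Fn1 in WT and at least 2.10 above these 3 in MD1. The 3 autosomal genes nearest to the pair of medians of the 10, by distance over the 2 genotypes, were Trip12 (-2.90 and -4.54), Gtf2h1 (-2.91 and -4.56) and Fam129b (-2.90 and -4.53), at distances of 0.0029, 0.013 and 0.014.

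The nearest gene with values on each side of each of the 10 was taken, 20 in all. Of these neighbours 19 carried more of the mark than the gene beside them in WT and 18 in MD1, where on average 88.9% and 83.4% of all autosomal genes did, so the counts are near what any autosomal genes would give. Pdgfra lies between Gm19583, at 0.53 in WT and 0.64 in MD1, and Kit, a receptor gene of the same family 377 kb away, at 0.56 and 0.52. Pdgfrb lies between the intestinal homeobox gene Cdx1, at 1.64 and 1.87, and Csf1r, the macrophage growth factor receptor gene 20.5 kb away, at -0.096 and 0.24. Cdx1 ends 8.95 kb before Pdgfrb starts, and the values there differ by 4.48 in WT and 4.61 in MD1. Sparc is followed by Atox1, at -1.75 and -2.84, and preceded by the protocadherin-family gene Fat2, at 1.17 and 1.33. Of the 20 neighbours, 5 had at least 2-fold less mark in MD1 and 0 at least 2-fold more, against 20.4% and 1.61% of autosomal genes. The 5 were Atic beside Fn1 (-1.59), Supt20 beside Postn (-1.67), Gorab beside Prrx1 (-1.16), Atox1 beside Sparc (-1.09) and Sidt2 beside Tagln (-2.22). Postn had more mark in MD1 while its neighbours Trpc4 (-0.092) and Supt20 had less.

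Genes that work with the 10 were described from lists that hold none of them, and the highest and lowest genes of a list are those by the mean of both values. The shares for at least 2-fold less mark to set beside these lists are 20.4% of all autosomal genes and 46.3% of those in the level range of the 10. Upward, the same limit was passed by 1.61% and 1.01%, in that order. By the level-matched difference, 3.41% of all autosomal genes passed it downward and 3.16% upward. Of 32 genes of the contractile apparatus, 14 had at least 2-fold less mark in MD1 and 0 as much more. Their medians were -2.24 and -3.22, and relative to genes of like level and length 2 were lower and 1 higher. The highest of this list were the smooth muscle genes Actg2 (0.64 and 1.10), Mylk (0.51 and 1.09) and Myh11 (0.64 and 0.84), which encode gamma smooth muscle actin, myosin light chain kinase and smooth muscle myosin. The lowest were the myosin light chain genes Myl6 (-3.99 and -5.39) and Myl12a (-3.71 and -5.13). Acta2 and Tagln were low in both genotypes, as were Cald1 (-3.08 and -5.18) and Tpm1 (-3.02 and -4.94), which encode caldesmon and a tropomyosin. Of the 32 genes of the list, 24 lay below the autosomal median in each genotype. Others lay above it in both, such as Cnn1 (-0.13 and -0.43) and Myl9 (-0.77 and -0.70). The Mylk interval overlaps 2 other listed genes.

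Of 22 genes of the PDGF pathway, 11 were at least 2-fold lower and 0 higher, with medians of -2.26 and -3.28. Relative to genes of like level and length 2 were lower and 0 higher. The ligand genes Pdgfb (1.71 and 1.23), Pdgfa (-0.31 and -2.10) and Pdgfd (-1.15 and -1.42) were the highest, all above both receptor genes. The adaptor gene Shc1 (-2.97 and -6.19) and the Ras GTPase-activating gene Rasa1 (-3.01 and -4.57) were the lowest. Pdgfa had a level-matched difference of -1.60, with 2 of its 500 like genes as low. In lowest terms its ratios were 18 to 23 in WT and 5 to 21 in MD1. That of Shc1 in MD1 was 2 to 143, so these values may rest on few ChIP reads.

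Of 37 genes of matrix, integrins and TGF-beta signalling, 8 were at least 2-fold lower and 2 higher, with medians of -2.07 and -2.09, and relative to like genes 1 was lower and 3 were higher. Elastin (Eln, 1.06 and 1.26), fibromodulin (Fmod, 0.14 and 0.57) and Tgfbi (0.086 and 0.59), the paralog of Postn, were the highest, and the matricellular genes Cyr61 (-5.91 and -4.35) and Ctgf (-3.61 and -6.05) the lowest. Of 19 mesenchymal regulators other than Prrx1, 3 were lower and 1 higher, with medians of -1.79 and -2.05, and relative to like genes 2 were lower and 1 higher. The transcription factor genes Tcf21 (2.93 and 2.29), Foxf1 (2.09 and 2.62) and Foxf2 (1.74 and 1.53) had high values in both genotypes. Snai2 (-2.89 and -5.99) and Snai1 (-3.36 and -3.73), encoding the zinc finger factors Slug and Snail, stood near or below Prrx1 in WT. In lowest terms the MD1 ratio of Snai2 was 1 to 62 and that of Ctgf 1 to 65. These values may also rest on few ChIP reads.

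The paralogs of the 10 genes were mostly marked. Of 27 paralogs, 15 in WT and 14 in MD1 lay above the third autosomal quartile, and the medians were 0.64 and 0.52. The intermediate filament genes Prph (2.35 and 2.77) and Ina (2.12 and 2.35) of neurons and skeletal muscle actin (Acta1, 1.91 and 2.53) were highest by mean level. The cytoplasmic actin genes Actb (-2.93 and -4.24) and Actg1 (-2.28 and -4.03) were lowest by mean level and were the 2 paralogs at least 2-fold lower in MD1. Tagln2 (-2.88 and -3.14) was below Actg1 in WT. Desmin (Des, 1.57 and 1.98), the muscle relative of Vim, and cardiac actin (Actc1, 0.70 and 0.27), that of Acta2, were also marked. Prrx2 (-1.48 and -1.63) was below the autosomal median in both genotypes but above Prrx1.

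Markers of other cell types had higher list medians than the 10 genes in both genotypes. Some of these markers were nevertheless below 0, a ratio of 1, in both genotypes. The medians in WT and MD1 were 1.35 and 1.44 for 9 epithelial genes, 0.22 and 0.38 for 9 endothelial, 1.02 and 1.10 for 8 autosomal blood, 0.087 and -0.081 for 9 neuronal and 1.62 and 1.14 for 9 skeletal muscle genes. Of these 44 genes, Lyl1 (-1.99 and -0.88), which overlaps Nfix, was the only one below the autosomal median in WT. Examples at the top were Cldn7 (2.36 and 2.07), Sox17 (2.36 and 2.42), Tal1 (2.51 and 2.46), Neurod1 (2.69 and 2.34) and Myod1 (3.13 and 3.75). The lowest of the other lists were Trp63 (-0.14 and -0.20), Emcn (-0.36 and -0.59), Gap43 (-0.66 and -0.67) and Myf5 (0.14 and -0.14). Of 13 fibroblast markers, 8 of them among the 10 genes, all lay below the autosomal median in WT and 12 in MD1. The exception was the proteoglycan gene Lum (-0.83 and -0.15), and the lowest outside the 10 was Fbn1 (-2.49 and -3.08), encoding fibrillin. The lists hold 5 such genes outside the 10, so this check of the labelled cell type rests mainly on the genes described here.

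**Figure D4:**
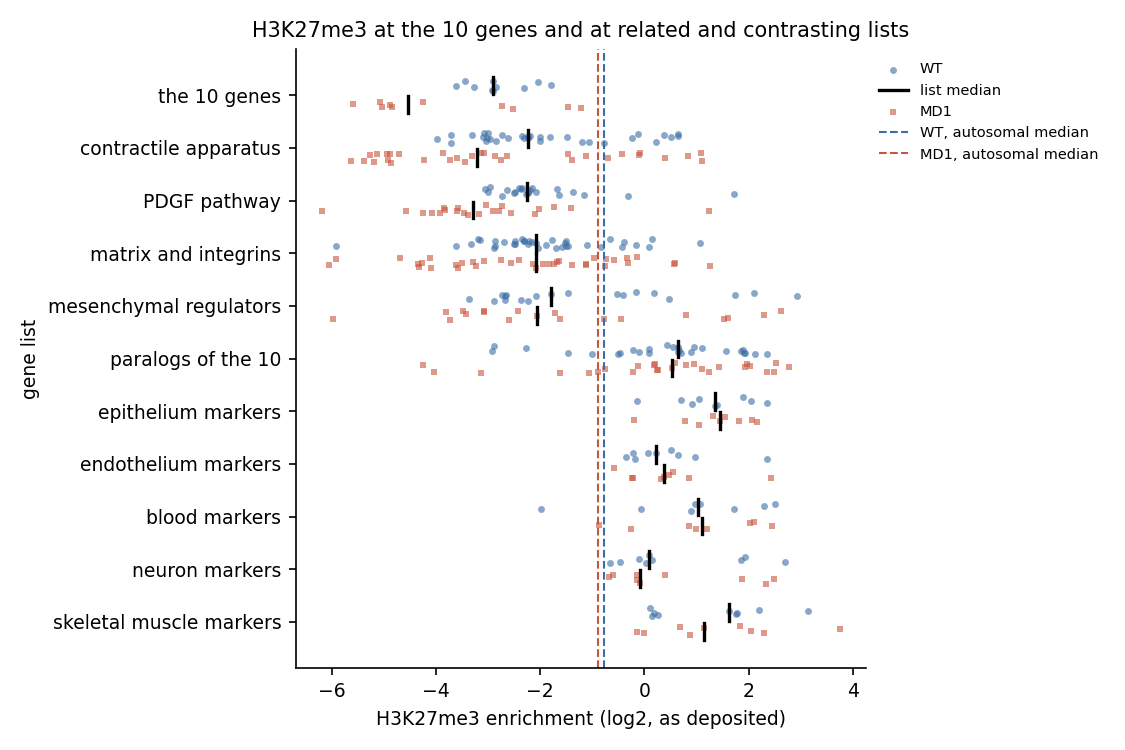
Deposited log2 H3K27me3 enrichment of each gene (points) in WT (circles) and MD1 (squares) for the 10 genes and 10 lists of related genes and of markers of other cell types, with list medians (black bars) and autosomal medians (dashed). The 10 genes have the lowest medians shown, -2.90 and -4.55, and the markers of the other cell types lie mostly to the right of the dashed lines.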

How the data were processed

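The authors deposited 1 table with a symbol, an mm9 position and 2 log2 H3K27me3 enrichment values per gene, WT and smchd1MD1 per the file headers. The build is from the submitters' processing notes. For the aligner, the read counting, the filters and the input scaling, the sources used here give no statement. Starts count from 0 in the table and are printed counting from 1. Nearly all values (99.98% in WT and 99.95% in MD1, relative tolerance 1e-12) have the form of 1 constant per genotype plus log2(p/q), with p and q whole and up to 20000, but read counts and depth stay unknown, so no counting interval is given. No gene shorter than 1000 bp had both values.

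The deposited log2 values were used unchanged. Differences, medians, counts past 2-fold and level-matched differences (500 nearest autosomal genes in mean level, same length quartile, the gene itself left out) were computed with Python 3.11.15, numpy 2.4.6 and pandas 2.3.3, and the matching was tested on simulated data. The members, the lists and the settings were chosen with earlier results of these data known. All 10 members were named. From each related list the 3 highest and 2 lowest genes by mean level were named, from each marker list the highest and lowest, the nearest gene with values on each side of a member, and the 3 genes nearest to the members' median pair. Other genes were named after their values were seen. Alternatives were pseudocounts, a level filter, centring, other fold limits, means and other matches.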

Additional observations from a re-analysis of the deposited data

How the results depend on the processing

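The count of genes lower in MD1 was 5 with a pseudocount of 0.01, with centring on the autosomal medians and at a limit of 3-fold, and 6 at 1.5-fold, where 18.4%, 17.3%, 7.61% and 34.4% of autosomal genes were lower. A pseudocount of 1 on the linear ratio, which exceeds the ratios of all 10 genes, left 0 lower genes (0.16% of autosomal genes), a median difference of -0.089 and 0 genes higher relative to genes of like level. Keeping genes at or above the 25th percentile of mean level left 14877 autosomal genes and 3 of the 10 genes, Pdgfra, Postn and Thy1. Of the 3, 0 were lower, against 4.95% of the genes kept. Their median difference was 0.58, a sign opposite to that over the 10, against -0.11 over the genes kept. Their median level-matched difference was 0.78, and 1 gene was higher relative to like genes. That setting leaves out the 5 lower genes by construction. At 1.5-fold 1 gene was higher, against 5.05% of autosomal genes. Relative to like genes 1 was lower and 4 were higher at 1.5-fold, and 0 were higher at 3-fold. The shares of autosomal genes past these 2 limits relative to like genes were not computed. Relative to like genes, 1 was lower with 1000 nearest genes (Fn1) and 1 with matching on the WT value (Tagln). In place of 2, 3 were higher with 200 nearest genes and with no match on length (Acta2 added). Matching on the WT value also gave 3 (Thy1 added), and matching on the MD1 value gave 1 (Postn). The cause was not tested. The share of autosomal genes past the limit under these other matches was not computed, so these counts have no share to be set against. The median level-matched difference lay between -0.013 (matched on WT) and 0.78, so its sign is not settled. No paired analysis was possible because each genotype had 1 library of each kind, and no replicate could be left out. The depth is unknown, so what it limits cannot be given.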

Other observations

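Among the listed genes outside the 10, some differed by at least 2-fold from genes of like level and length; those below were picked after their values were seen. Thbs2, encoding the matricellular protein thrombospondin 2, went from -2.15 in WT to -0.76 in MD1 and Loxl2, a collagen crosslinking enzyme gene, from -2.07 to -1.39. Their level-matched differences were 1.67 and 1.15, and 0 of 500 like genes were as high as either, as at Postn. The related odd-skipped factor genes Osr1 and Osr2 differed in opposite directions, Osr1 from -0.40 to -1.72 and Osr2 from 0.47 to 1.59, with 0 of 500 like genes as high as Osr2. The level-matched difference of Osr1, -1.22, was close to the spread of its like genes, with a standard deviation of 0.94 and 36 of 500 as low. Actn4, encoding a nonmuscle alpha-actinin, went from -2.96 to -5.63, with 3 of 500 as low, and its interval overlaps Capn12. In lowest terms Cyr61 had ratios of 1 to 62 in WT and 1 to 20 in MD1, so that its difference of 1.56 may rest on single ChIP reads.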
